A study of Mus musculus with 6 samples.

Results

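The CLCA proteins, named calcium-activated chloride channel regulators, are encoded in the mouse by a cluster of neighbouring genes. The 7 listed protein-coding members (Clca1, Clca2, Clca3a1, Clca3a2, Clca3b, Clca4a and Clca4b) were chosen by symbol from a table of 18049 genes. All 7 had a row, and all 7 were among the 16670 genes that reached a value of 0.1 in at least 3 mice and were tested. The family was proposed with the response of its members to treatment already known, so the treatment values of the members are given as a description. No p-value is given for a member, and where the fit across all genes called a member, the call is counted but supports nothing.

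Total RNA-Seq had been performed on colonic crypts of 3 Control and 3 GSK503-treated mice, with 1 library per mouse. GSK503 is an inhibitor of EZH2, the methyltransferase that deposits the repressive H3K27me3 mark, and the comparison asks how the crypt epithelium responds to it. Treated mice received 200 μg/kg of GSK503 into the tail vein, and Control mice received the vehicle, captisol in PBS. Both groups were of the same mouse model of Lynch syndrome, which carries a Villin-Cre transgene, active in the gut epithelium, and a humanized TgfβRII allele that was knocked in. Controls therefore carried the same alleles as treated mice, and no wild-type group entered the comparison. Ages were not given in the labels.

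CLCA proteins were first taken for chloride channels and are now known as secreted or membrane-attached proteins with a metalloprotease domain that cleave themselves. Clca1 is a product of goblet cells and a component of intestinal mucus, and it raises the amount of the calcium-activated chloride channel Ano1 (TMEM16A) at the cell surface. Clca2 is known from stratified epithelia and, in human cells, as a p53 target, whereas Clca4a and Clca4b are known from the intestinal epithelium and Clca3a1 from lymphatic endothelium. Symbols follow current mouse nomenclature, in which Clca1 is the gene formerly named Clca3 or gob5 and Clca2 the gene formerly named Clca5.

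The members lie side by side on chromosome 3 (GRCm39), all on the minus strand, with 14 exons in the canonical transcript of each. From the low to the high coordinate the order is Clca3a1 (chr3:144435438-144466738), Clca3a2 (chr3:144502320-144525255), Clca3b (chr3:144528227-144555118), Clca4b (chr3:144616682-144638290), Clca4a (chr3:144658241-144680806), Clca1 (chr3:144709578-144738537) and Clca2 (chr3:144776024-144805204). Together they span 370 kb. Clca4b and Clca4a are separated by 20.0 kb and Clca1 and Clca2 by 37.5 kb.

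Some members are recent copies of each other, which bears on how short reads can be assigned to them. Over aligned coding bases, Clca3a1 and Clca3a2 were 97.1% identical, with a longest identical run of 242 bases, and Clca4a and Clca4b were 96.0% identical, with a longest run of 168 bases. Clca3b was 87.2% identical to Clca3a2 and 87.1% to Clca3a1, whereas Clca1 and Clca2 were no closer to any member than 65.6% and 63.4%. Of all windows of 76 bases, the read length, in the canonical transcripts, 24.5% in Clca4a, 12.2% in Clca4b, 14.1% in Clca3a1, 14.4% in Clca3a2 and 1.71% in Clca3b also occurred in a transcript of another gene. No such window was found in Clca1 or Clca2. The stretches printed here show how the number of differences between the copies varies along the coding sequence. Bases that differ between the 2 copies are in capitals, and positions are counted from the A of the start codon. At coding bases 1 to 76, Clca4a and Clca4b differ at 2 positions.
Clca4a, bases 1 to 76: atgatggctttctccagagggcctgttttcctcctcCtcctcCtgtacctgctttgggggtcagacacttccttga
Clca4b, bases 1 to 76: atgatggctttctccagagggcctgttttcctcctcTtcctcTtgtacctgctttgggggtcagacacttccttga
At coding bases 2622 to 2697, the window in which this pair differs most, there are 10 differences.
Clca4a, bases 2622 to 2697: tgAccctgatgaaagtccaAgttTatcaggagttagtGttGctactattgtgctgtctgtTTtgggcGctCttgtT
Clca4b, bases 2622 to 2697: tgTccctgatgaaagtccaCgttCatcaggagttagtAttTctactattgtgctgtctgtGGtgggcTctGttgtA
For Clca3a1 and Clca3a2 the window that differs most lies at coding bases 543 to 618 and holds 13 differences, while bases 1 to 76 of the pair are identical.
Clca3a1, bases 543 to 618: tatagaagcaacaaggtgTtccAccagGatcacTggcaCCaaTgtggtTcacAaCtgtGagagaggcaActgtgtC
Clca3a2, bases 543 to 618: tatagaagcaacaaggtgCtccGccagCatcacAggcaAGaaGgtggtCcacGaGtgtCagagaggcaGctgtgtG

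Clca4a and Clca4b also share sequence upstream of their starts. The 250 bases before the transcript starts of Clca4a (chr3:144680807-144681056, minus strand) and Clca4b (chr3:144638291-144638540, minus strand) were 89.1% identical over 248 aligned bases, with 29 bases differing or unpaired, shown in capitals. They are printed because the values of the 2 genes moved apart in the treated mice.
Clca4a, 250 bases upstream: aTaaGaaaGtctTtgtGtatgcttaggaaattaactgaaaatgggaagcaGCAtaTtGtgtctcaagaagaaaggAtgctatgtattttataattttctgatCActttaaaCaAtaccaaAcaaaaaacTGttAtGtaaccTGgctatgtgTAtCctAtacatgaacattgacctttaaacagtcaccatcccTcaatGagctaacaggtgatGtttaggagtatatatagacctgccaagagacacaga
Clca4b, 250 bases upstream: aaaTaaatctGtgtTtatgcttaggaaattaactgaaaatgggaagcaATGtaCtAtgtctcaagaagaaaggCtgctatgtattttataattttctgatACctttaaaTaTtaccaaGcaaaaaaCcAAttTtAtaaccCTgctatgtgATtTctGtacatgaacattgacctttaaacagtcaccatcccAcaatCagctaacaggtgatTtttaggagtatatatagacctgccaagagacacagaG
The upstream windows of Clca1 (chr3:144738538-144738787, minus strand) and Clca2 (chr3:144804868-144805117, minus strand), the 2 members with the highest log2FC, were 40.9% identical over the whole alignment, gaps included. By that measure Clca4a and Clca4b were 87.7% identical, and every other pair of members lay between 40.5% and 49.1%. In the Clca2 window, which overlaps a non-coding Clca2 transcript, the capitals mark an E-box.
Clca1, 250 bases upstream: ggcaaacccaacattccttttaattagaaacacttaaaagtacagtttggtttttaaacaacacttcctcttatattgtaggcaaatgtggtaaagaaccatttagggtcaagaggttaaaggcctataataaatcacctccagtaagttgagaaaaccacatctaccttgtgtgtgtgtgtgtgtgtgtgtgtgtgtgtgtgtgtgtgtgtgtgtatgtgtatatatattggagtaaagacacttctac
Clca2, 250 bases upstream: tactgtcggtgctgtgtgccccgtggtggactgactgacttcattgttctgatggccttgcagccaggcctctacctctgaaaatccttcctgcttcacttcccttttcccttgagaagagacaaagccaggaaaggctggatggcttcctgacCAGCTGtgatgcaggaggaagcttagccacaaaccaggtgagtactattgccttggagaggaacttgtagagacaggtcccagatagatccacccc

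Motif letters were looked up on both strands of these windows and of 21751 windows of the same length, taken before annotated genes across the genome. The motifs were the TATA box TATAAA (in 11.9% of all windows), the E-box CAGCTG (11.9%), the forkhead motif TGTTTAC (2.72%), the caudal motif CAATAAA (3.99%), the GATA motif AGATAA (9.6%), the Kruppel-like motif CCACACCC (3.56%) and the p53 half-site (6.68%). CAGCTG was found 96 bases before the start in Clca2 and in Clca3a1. TATAAA, on the strand opposite to the gene, was found 164 bases before the start in Clca4a and 166 and 119 bases before it in Clca4b, so that the second match is in 1 of the 2 copies. AGATAA was found in Clca3a2 and TGTTTAC in Clca3b, and the Clca1 window held none of the 7 motifs as written. For the TATA box only the letters TATAAA were looked up, so variants of it were not counted. The printed windows of Clca1, Clca4a and Clca4b hold the letters TATATATA near the start, on the strand of the gene. Whether these act as a TATA box was not tested. The windows were poor in CpG, with 0 CpG dinucleotides in Clca1, Clca4a and Clca4b, 2 in Clca2 and Clca3a1, 4 in Clca3a2 and 5 in Clca3b, against a median of 8 over all windows. In all, 24.2% of the windows held 2 or fewer.

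The 6 libraries held between 108162848 and 135085027 estimated counts, and the value that 3 counts give lay between 0.0228 and 0.0271. Values are given on the scale of the table, CPM after TMM scaling, written here as TMM-scaled CPM, and log2FC is the difference between group means of log2(value + 0.1), GSK503 minus Control. Any pair of libraries had a Pearson's r of 0.976 to 0.99 over the genes tested. The sexes were not balanced. Eif2s3y, a Y-linked gene, was at 51.3 to 59.5 in Control mice and at 0 in all treated mice, and Xist was at 0.419 to 0.936 against 825 to 1236, so that an effect of treatment and an effect of sex cannot be told apart for any member. By limma with Benjamini-Hochberg adjustment, 83 genes (0.498% of those tested) were called higher and 24 (0.144%) lower at an adjusted p below 0.05, which is 0.642% in either direction. The median log2FC over all genes tested was -0.01.

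In the crypts of treated mice Clca1 and Clca2 were higher in every mouse than in any Control mouse, Clca4a had a higher mean and Clca4b, Clca3a1, Clca3a2 and Clca3b had lower means, with overlap between the groups for each of these 5. Thus 2 of 7 members were called higher, beside 0.498% of all genes tested (0.642% in either direction), and 0 of 7 were called lower by limma, beside 0.144%. Limma-voom on recovered counts also called 2 members. The groups did not overlap for 2 of 7 members, both with treated mice above Control mice, where 9.84% of all genes tested had that pattern and 9.22% the opposite one. These shares were known when the family was proposed, and nothing is read from them. The median log2FC over the members was -0.34, which describes a family whose members went in both directions.

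**Figure D1:**
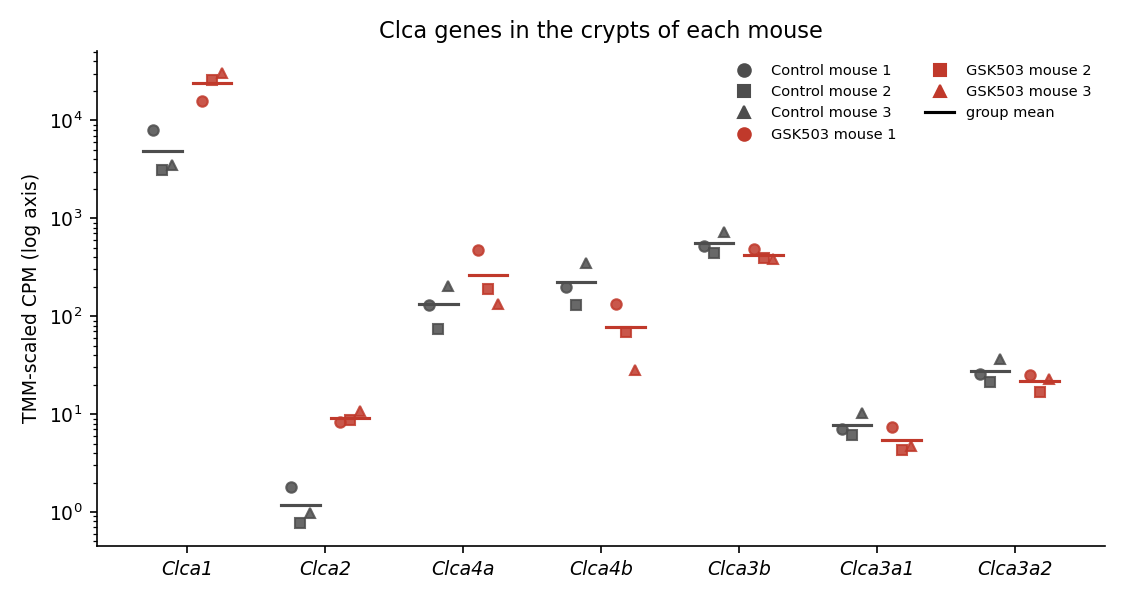
TMM-scaled CPM of each Clca gene on a log axis, with 1 symbol per mouse (gray, Control; red, GSK503) and a bar at the group mean, n = 3 mice per group. Clca1 and Clca2 show no overlap between groups, and the other 5 genes do.

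Clca1, the goblet cell member, was among the most abundant transcripts of the crypts. Its value was 7984, 3147 and 3460 TMM-scaled CPM in Control mice 1, 2 and 3, whereas GSK503 mice 1, 2 and 3 had 15898, 25628 and 30267. The means were 4864 ± 2707 and 23930 ± 7333 (SD, n = 3 each), a ratio of 4.92, with a log2FC of 2.38 ± 0.38 (SE). Control mouse 1 was the highest Control mouse, and GSK503 mouse 1 the lowest treated mouse. Even between these 2 mice the treated value was the higher one.

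Ranked by value within its library, Clca1 stood at place 8, 17 and 16 in Control mice and at place 5, 4 and 2 in treated mice. It made up 0.812%, 0.322% and 0.355% of the summed values in Control mice and 1.49%, 2.38% and 2.92% in treated mice. A gene of this abundance adds to the total by which a library is scaled. With library size alone in place of TMM scaling its log2FC was 2.27. Within the family, Clca1 held between 72.5% and 90% of the summed values in Control mice and between 93.4% and 98.1% in treated mice, so the total of the family follows this gene. In bulk RNA, a change in the number of cells of a type and a change in RNA per cell cannot be told apart, for Clca1 or any other member.

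Clca2 had the highest log2FC of the family and, in Control mice, the lowest level. Control mice 1, 2 and 3 had 1.80, 0.769 and 0.976 TMM-scaled CPM, and GSK503 mice 1, 2 and 3 had 8.24, 8.62 and 10.6. These values rest on 237, 85 and 124 estimated counts in Control mice and on 972, 1082 and 1278 in treated mice, all far above the floor of 3 counts. The lowest treated mouse lay well above the highest Control mouse, which was again Control mouse 1. The log2FC was 2.93 ± 0.30 (SE), which ranked 14 of 16670, against rank 21 for Clca1. Estimated counts of Clca1 and Clca2 were whole numbers (within 0.01) in 6 of 6 libraries, as counts are where no read is split between genes.

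The values of Clca1 and Clca2 went together across mice within wide limits. The ratio of Clca1 to Clca2 was 4430, 4090 and 3550 in Control mice and 1930, 2970 and 2850 in treated mice, so that both genes were higher but Clca2 by the larger factor. Among treated mice both were lowest in mouse 1 and highest in mouse 3, and in Control mice both were highest in mouse 1 and lowest in mouse 2.

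Clca4a and Clca4b, the near-identical pair, had opposite signs. Clca4a was at 129.6, 73.1 and 201 TMM-scaled CPM in Control mice 1, 2 and 3 and at 469, 188 and 133 in GSK503 mice 1, 2 and 3. The means were 134.6 ± 64.2 and 263.6 ± 180.3 (SD, n = 3 each), and the log2FC was 0.88 ± 0.45 (SE). The higher treated mean came from GSK503 mouse 1, and the other 2 treated mice lay within the Control range.

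Clca4b was at 196, 131.3 and 349 TMM-scaled CPM in Control mice and at 134.1, 68.6 and 28.0 in treated mice. The means were 225.6 ± 111.8 and 76.9 ± 53.5 (SD, n = 3 each), and the log2FC was -1.71 ± 0.50 (SE), rank 87 from the bottom of 16670. GSK503 mice 2 and 3 lay below all Control mice, and GSK503 mouse 1 lay just above Control mouse 2. In treated mice both genes were highest in mouse 1 and lowest in mouse 3, and in Control mice both were highest in mouse 3 and lowest in mouse 2.

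Within each library, the balance of the pair separated the groups although neither gene alone did. The ratio of Clca4a to Clca4b, computed after the values of the 2 genes had been seen, was 0.66, 0.557 and 0.576 in Control mice and 3.5, 2.74 and 4.75 in treated mice. Clca4b was thus the higher copy in 3 of 3 Control mice and Clca4a in 3 of 3 treated mice. The sum of the 2 genes was 325.9, 204.4 and 550.3 in Control mice and 603.5, 256.9 and 161.3 in treated mice, with overlap and no common direction. Fitted as a single gene, the sum had a log2FC of -0.18 ± 0.45 (SE), opposite in sign to that of Clca4a alone. Estimated counts of Clca4a were whole in 1 of 6 libraries and those of Clca4b in 0 of 6, so reads were shared out between these genes and others by RSEM, and how this touched the ratio was not tested. The sequenced mice may also differ in the bases that separate the copies, which was not tested.

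**Figure D2:**
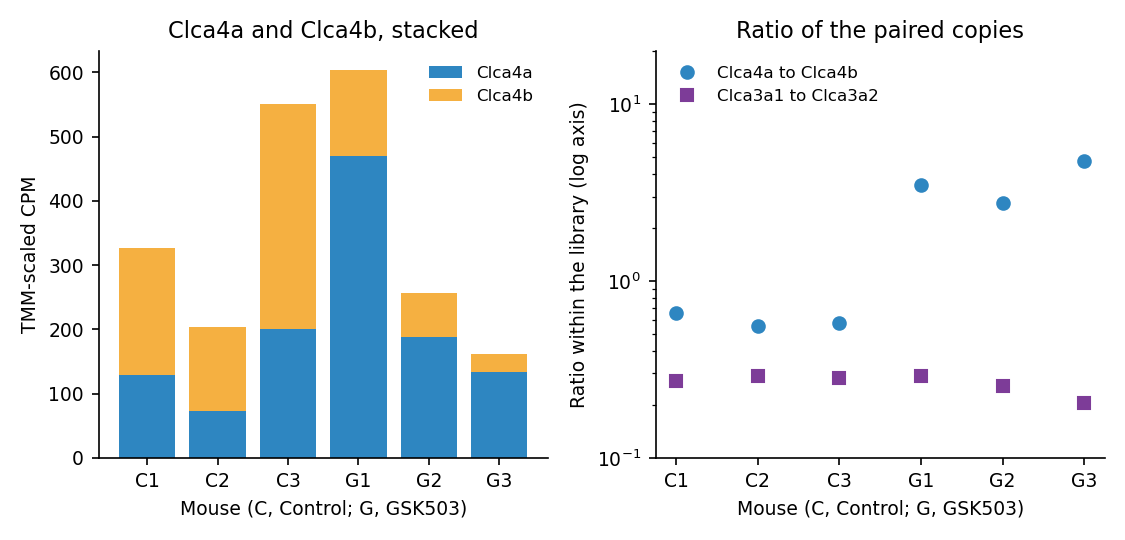
Left, TMM-scaled CPM of Clca4a and Clca4b stacked for each mouse (C, Control; G, GSK503). Right, the ratio within each library on a log axis, where Clca4a to Clca4b is between 0.557 and 0.66 in Control mice and between 2.74 and 4.75 in treated mice, while Clca3a1 to Clca3a2 lies between 0.205 and 0.292 throughout.

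The 3 remaining members had lower means in treated mice by smaller amounts. Clca3b, the most abundant of them, was at 524, 444 and 718 TMM-scaled CPM in Control mice and at 485, 396 and 380 in treated mice, with a log2FC of -0.40 ± 0.17 (SE). GSK503 mice 2 and 3 lay below all Control mice and mouse 1 within their range. Clca3a2 was at 25.6, 21.1 and 36.5 in Control mice and at 25.3, 16.9 and 22.8 in treated mice, with a log2FC of -0.34 ± 0.20 (SE). Only GSK503 mouse 2 lay below all Control mice.

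Clca3a1, known from lymphatic endothelium, was at 6.98, 6.17 and 10.3 TMM-scaled CPM in Control mice and at 7.39, 4.33 and 4.67 in treated mice, with a log2FC of -0.51 ± 0.25 (SE). GSK503 mice 2 and 3 lay below all Control mice. The balance of this copy and Clca3a2 moved far less than that of the Clca4 pair. The ratio of Clca3a1 to Clca3a2 was 0.273, 0.292 and 0.282 in Control mice and 0.292, 0.256 and 0.205 in treated mice. In this ratio too, GSK503 mice 2 and 3 lay below all Control mice. Control mouse 3 had the highest value of all 3 genes and of Clca4a and Clca4b among Control mice. Estimated counts of Clca3a1 and Clca3a2 were whole in 0 of 6 libraries, so their split is uncertain too, and their sum was 32.6, 27.3 and 46.8 against 32.6, 21.2 and 27.5. Endothelial markers were set beside Clca3a1. Of the 10 listed lymphatic and blood endothelial markers, 8 had a log2FC below 0, the median being -0.48. By limma or limma-voom 0 were called, beside 0.642% of all genes tested by limma. By limma, 1 had an unadjusted p below 0.05, beside 13.3% of all genes tested. The summed value of the list was 15.6, 19.5 and 13.5 in Control mice and 8.23, 8.67 and 31.0 in treated mice. GSK503 mouse 2 was low in both the sum and Clca3a1. In contrast, GSK503 mouse 1 was lowest in the sum but had the highest Clca3a1 value of the treated mice. GSK503 mouse 3 was highest in the sum and low in Clca3a1. The part of endothelial cells in the values of Clca3a1 was not tested.

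Compared per length, as TMM-scaled CPM per kb of canonical transcript, the members covered a wide range of levels. In Control mice the order of level was Clca1 (1330 ± 741), Clca3b (160 ± 40), Clca4b (75.3 ± 37.3), Clca4a (44.8 ± 21.4), Clca3a2 (7.60 ± 2.17), Clca3a1 (2.22 ± 0.621) and Clca2 (0.297 ± 0.137), each as mean ± SD over 3 mice. Only the ranges of Clca4b and Clca4a overlapped among neighbours in that order. In treated mice it was Clca1 (6550 ± 2010), Clca3b (120 ± 16.1), Clca4a (87.8 ± 60.0), Clca4b (25.7 ± 17.9), Clca3a2 (5.93 ± 1.18), Clca2 (2.30 ± 0.323) and Clca3a1 (1.55 ± 0.476). There the ranges of Clca3b and Clca4a, of Clca4a and Clca4b, and of Clca2 and Clca3a1 overlapped. Between the groups, Clca4a changed places with Clca4b, and Clca2 with Clca3a1. Clca2 per kb exceeded Clca3a1 in 2 of 3 treated mice and in none of the Control mice. The ratio of Clca1 to Clca3b in TMM-scaled CPM went from between 4.82 and 15.2 in Control mice to between 32.8 and 79.6 in treated mice.

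Position along the cluster gives another view of the same differences. The higher means lay at one end, where Clca2, Clca1 and Clca4a are adjacent, and the lower ones began with Clca4b. The groups overlapped for both Clca4 genes, and summed as a single gene they had a log2FC of -0.18. Where along the cluster the sign changes therefore rests on the uncertain split of reads between these 2 copies. Of 14 other tested genes within 1 Mb of the cluster, 0 were called by limma with Benjamini-Hochberg adjustment, beside 0.642% of all genes tested. Limma-voom called 0. With so low a share, 0 calls among 14 genes do not show that the neighbourhood was unchanged. By limma, 3 had an unadjusted p below 0.05, beside 13.3% of all genes tested. Groups were apart for Odf2l and 2410004B18Rik, with treated values higher, a pattern of 9.84% of all genes tested. They were also apart for Znhit6, Ccn1 and Syde2, with treated values lower, a pattern of 9.22%. For the other neighbours they overlapped. The median log2FC was -0.01 with a range from -0.79 to 0.71. The highest was Odf2l, a centrosome and cilium gene that starts 19.4 kb from the start of Clca2 on the opposite strand. It was at 24.0, 17.4 and 23.8 TMM-scaled CPM in Control mice and at 32.1, 34.2 and 39.8 in treated mice, with no overlap, a log2FC of 0.71 ± 0.14 (SE) and an adjusted p of 0.0598 by limma. Sh3glb1, on the other side of the cluster next to Clca3a1, had a log2FC of -0.05 ± 0.07 (SE). The lowest was Ccn1, a secreted matrix protein gene, at 14.1, 9.83 and 13.1 against 6.71, 7.92 and 6.49, with a log2FC of -0.79 ± 0.17 (SE) and an adjusted p of 0.0741 by limma. Lmo4, Hs2st1, Selenof, Gm16215, Col24a1, Znhit6, Ddah1, Rpl36a-ps2, Bcl10, 2410004B18Rik and Syde2 lay between these values. Within the cluster, the pseudogene Clca4c-ps was near the floor, at 0.146, 0.0740 and 0.400 against 0.238, 0.228 and 0.

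**Figure D3:**
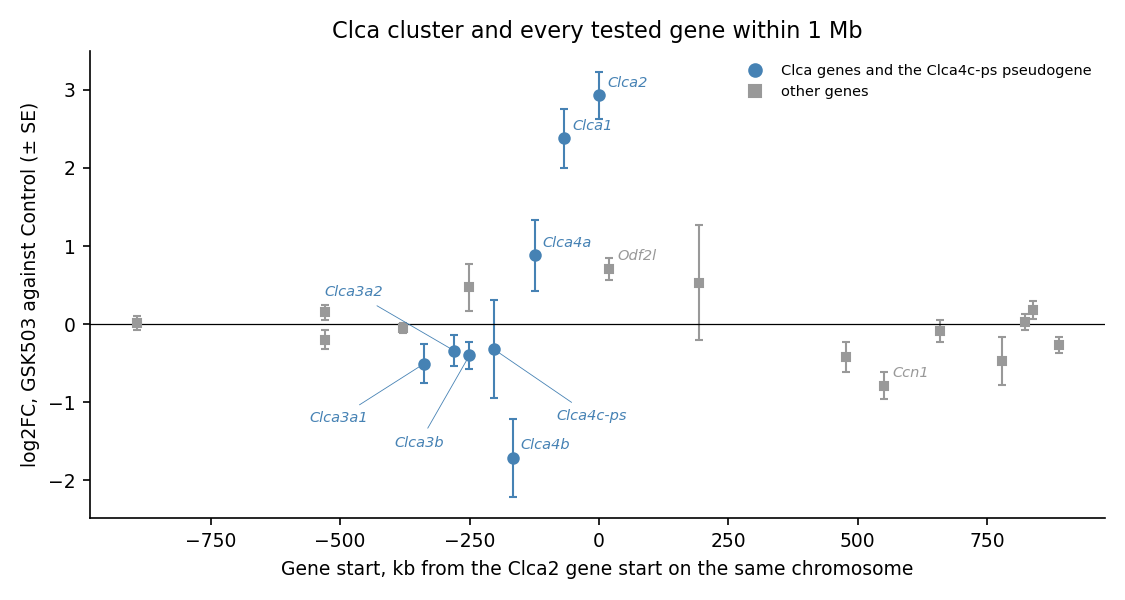
log2FC (GSK503 against Control, ± SE, n = 3 mice per group) of each tested gene within 1 Mb against the distance of its start from the Clca2 gene start in kb (blue, Clca genes and the Clca4c-ps pseudogene; gray, other genes). Clca2 and Clca1 stand above 2, Clca4b is the lowest, and the other genes lie between -0.79 and 0.71.

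Genes with the most similar profiles were looked up among 12797 genes with a mean of at least 1, by the Euclidean distance between log2 profiles over the 6 mice, each centred on its own mean. Closest to Clca1 were Spink5, a serine protease inhibitor gene (distance 0.291), Mptx1, a pentraxin gene (0.425), and Lrrn4 (0.81). Closest to Clca2 were Reg4 (0.577), a lectin gene of secretory cells of the gut, Spink5 (0.772) and Nptx1 (0.827). Spink5 is thus near both, while Clca1 and Clca2 lay at 0.868 from each other. Clca4a was closest to Ly6m (0.477), Bmp8b (0.525) and Cldn4 (0.69), a tight junction gene, and Clca4b to Tac1 (0.742), Afm (1.1) and Lrg1 (1.12). Clca3b was closest to Nfia (0.102), Tmem72 (0.136) and Etl4 (0.137), Clca3a2 to Gatad2b (0.16), Ica1l (0.174) and Nemp2 (0.213), and Clca3a1 to Tead1 (0.178), Olfr784 (0.247) and Slc25a27 (0.25). The 3 Clca3 genes lay between 0.362 and 0.427 from each other, and Clca4a and Clca4b at 3.22. The distances cover the difference between groups as well as the spread within them, and they are small for genes that vary little.

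Listed goblet cell genes were set beside Clca1. Of 14 listed goblet cell genes, 14 had a higher mean in treated mice, 4 were called higher and 0 lower by limma with Benjamini-Hochberg adjustment, against 0.498% and 0.144% of all genes tested, and the median log2FC was 0.70. For 11 of the 14 every treated mouse exceeded every Control mouse, against 9.84% of all genes tested. Retnlb, an antibacterial goblet cell product, rose with a log2FC of 1.88 ± 0.21 (SE; adjusted p = 0.00423, limma), Spink4 by 1.43 ± 0.13 (adjusted p = 0.00164), the trefoil factor gene Tff3 by 0.79 ± 0.13 (adjusted p = 0.0325) and Spdef, a transcription factor of goblet cell maturation, by 0.68 ± 0.12 (adjusted p = 0.0459). Fcgbp, a mucus protein gene and the most abundant of the list, had a log2FC of 1.33 ± 0.26 (SE) and an adjusted p of 0.0598 by limma. Galnt12 had the lowest, 0.02 ± 0.10 (SE).

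The log2FC of Clca1 was above that of each of the 14 genes. Nothing is read from this order, because Clca1 was chosen with its response known. Itln1 and Reg4, lectin genes of secretory cells that are not on the list, were higher still, at 2.96 and 3.17. The value of Clca1 relative to the sum of the list was 0.626, 0.344 and 0.382 in Control mice and 0.821, 0.995 and 1.27 in treated mice. Relative to this sum, in which Fcgbp had the largest part, Clca1 was thus higher in every treated mouse than in any Control mouse. This did not hold relative to each gene of the list. Relative to Spink4 or Retnlb alone, Clca1 was lower in GSK503 mouse 1 than in Control mouse 1. The sum itself was 12752, 9150 and 9064 TMM-scaled CPM in Control mice and 19367, 25746 and 23777 in treated mice. The part of goblet cell number in the values of Clca1 was not tested.

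**Figure D4:**
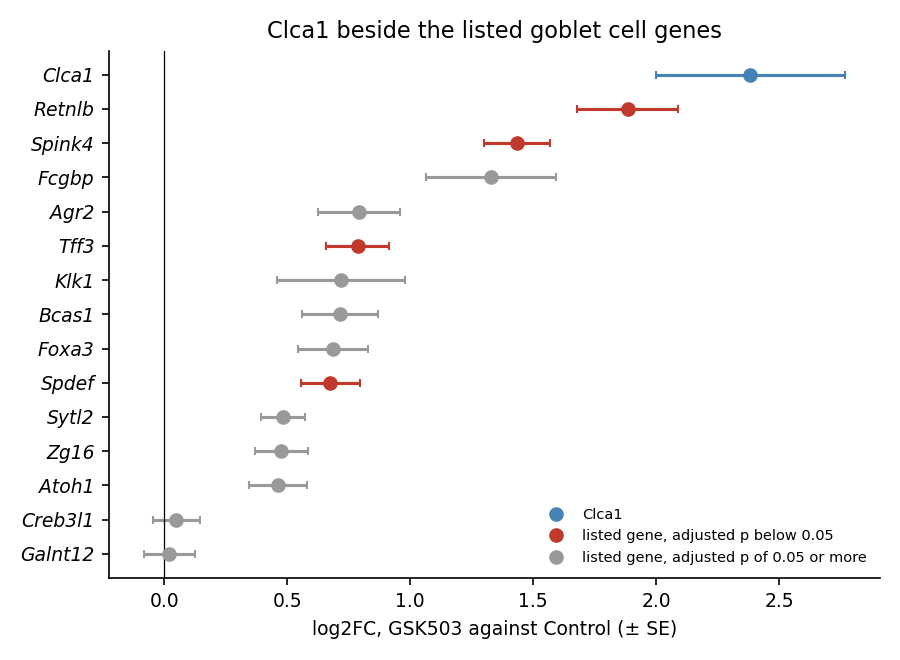
log2FC (GSK503 against Control, ± SE, n = 3 mice per group) of Clca1 and of the 14 listed goblet cell genes, in order of size (blue, Clca1; red, adjusted p below 0.05 by limma; gray, other listed genes). All 15 values lie at or above 0.02, and Clca1 is the highest.

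The genes of type 2 cytokine signalling, which is known to raise goblet cell products, were described next. Of 16 listed genes, 12 were tested, of which 3 were called higher and 0 lower (0.498% and 0.144% of all genes tested), with a median log2FC of 0.57. Of these, Retnlb and Spdef are also on the goblet cell list. The third, Itln1, a lectin gene of secretory cells, rose from 38.7, 7.62 and 9.01 TMM-scaled CPM in Control mice to 76.6, 128.8 and 128.7 in treated mice (log2FC 2.96 ± 0.51 SE; adjusted p = 0.0415, limma). As with Clca1 and Clca2, Control mouse 1 was the highest Control mouse and GSK503 mouse 1 the lowest treated mouse for Itln1. The receptor and signal genes of the list gave log2FC values of -0.13 (Il4ra), 0.12 (Il13ra1) and -0.00 (Stat6), and none of these was called.

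Among 15 listed partners of chloride secretion, 0 were called by limma, beside 0.642% of all genes tested, and 0 by limma-voom. By limma, 6 of the 15 had an unadjusted p below 0.05, beside 13.3% of all genes tested, and the median log2FC was 0.09. Ano1, whose channel Clca1 regulates, was at 192, 166 and 137 TMM-scaled CPM in Control mice and at 200, 268 and 242 in treated mice, with no overlap, a log2FC of 0.53 ± 0.14 (SE) and an adjusted p of 0.135 by limma. Best2, a calcium-activated anion channel gene of goblet cells, had a log2FC of 0.67 ± 0.23 (SE; adjusted p = 0.258, limma). These were the 2 of 15 genes with all treated mice above all Control mice, a pattern of 9.84% of all genes tested. For 3 genes all treated mice lay below all Control mice, a pattern of 9.22% of all genes tested, namely Cftr, the cAMP-regulated chloride channel (-0.31; adjusted p = 0.224, limma), Slc12a2, the basolateral chloride importer (-0.23; adjusted p = 0.245), and Slc4a4, a bicarbonate transporter (-0.48; adjusted p = 0.131). None of these passed the test.

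Surface colonocyte genes are of interest beside Clca4a and Clca4b, which are known from the intestinal epithelium. Of 12 listed genes, 0 were called by limma or limma-voom, beside 0.642% of all genes tested by limma, and the median log2FC was 0.12. By limma, 3 had an unadjusted p below 0.05, beside 13.3% of all genes tested. The groups overlapped for all 12. Of all genes tested, 9.84% had all treated mice above all Control mice and 9.22% all below. In treated mice, Clca4a and Clca4b were highest in mouse 1 and lowest in mouse 3, and 5 of the 12 genes had that order, 3 had the opposite order and 4 another one, a count made after the values had been seen. Of the first kind, Car1, a carbonic anhydrase gene, was at 4019, 2069 and 954 in GSK503 mice 1, 2 and 3, Emp1 at 288, 135 and 79.0 and Cyp2c55 at 243, 180 and 70.2. In Control mice these genes were at 1791, 2206 and 2185 (Car1), at 149, 100.2 and 163 (Emp1) and at 272, 166 and 137 (Cyp2c55), which is not the order of the Clca4 genes for Car1 or Cyp2c55. Of the opposite kind, Car4, another carbonic anhydrase gene, was at 227, 309 and 352 in GSK503 mice 1, 2 and 3, Saa1 at 190.2, 225 and 265 and Lypd8 at 3367, 3937 and 4028. The list thus held both orders. Whether the share of surface cells differed between preparations was not tested.

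For Clca2, lists from its known biology in other tissues were set beside its values. Of 15 listed p53 target genes, 0 were called by limma or limma-voom (2 at an unadjusted p below 0.05), and the median log2FC was 0.09. Of all genes tested, 0.642% were called by limma and 13.3% had an unadjusted p below 0.05, and both shares apply to the next list too. Cdkn1a, the classical p53 target, had a log2FC of 0.22 ± 0.13 (SE). Of 14 listed stratified epithelium markers, 9 were in the table and 8 were tested, with 0 called by limma or limma-voom, 0 at an unadjusted p below 0.05 and a median log2FC of 0.18. Krt14 was at 0.57 to 1.77 TMM-scaled CPM over all 6 mice and Trp63 at 0 to 0.166, which did not pass the filter, and Sfn, also made in simple epithelium, carried the sum of the list. Krt14 had all treated mice above all Control mice (log2FC 0.72 ± 0.34 SE; adjusted p = 0.415, limma). The summed value of the list was 138, 130.4 and 152 in Control mice and 176, 159.8 and 139.7 in treated mice, with overlap, while Clca2 did not overlap.

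The crypt label was checked with markers of other cells. The 7 epithelial markers summed to between 12000 and 15120 TMM-scaled CPM in all mice. Smooth muscle markers (7 genes, median log2FC -1.79) summed to 21.4, 92.1 and 48.5 in Control mice and to 5.68, 4.84 and 125 in treated mice, leukocyte markers (9 genes, median -0.69) to 49.4, 65.6 and 38.1 and to 22.8, 22.3 and 56.8. Fibroblast markers (7 genes) and endothelial markers (10 genes) had medians of -0.67 and -0.48, and 9 tested Hox genes of the hindgut a median of 0.26. None of the genes on these 6 lists was called by limma or limma-voom, beside 0.642% of all genes tested by limma. Between 0 and 3 per list had an unadjusted p below 0.05 by limma, beside 13.3% of all genes tested. GSK503 mouse 3 thus carried the highest smooth muscle sum while GSK503 mice 1 and 2 carried the lowest. Of the 9 leukocyte markers, 9 had a log2FC below 0, and 3 had an unadjusted p below 0.05 by limma. The plain mean of Adgre1 was nevertheless higher in treated mice, at 0.845 against 0.649 in Control mice. Whether carried-over cells bear on the values of Clca1 and Clca2 was not tested.

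The values of the members under other settings are given as a description. Over 17 alternatives the log2FC ranged from 2.24 to 3.25 for Clca2 and from 2.14 to 2.81 for Clca1. Clca2 passed the threshold in 16 of them and Clca1 in 10, counts that rest on the contrast known when the family was proposed and from which nothing is read. With a mouse left out, Clca1 fell short of the threshold without Control mouse 2 (log2FC 2.14), without Control mouse 3 (2.20) and without GSK503 mouse 2 (2.31). The other 5 members were called under none of their alternatives. Clca4b ranged from -2.24 to -1.12 when a mouse was left out and was closest to 0 without GSK503 mouse 3, and Clca4a ranged from 0.35, without GSK503 mouse 1, to 1.26. Clca3a1, Clca3a2 and Clca3b kept their negative sign throughout, with log2FC values from -0.75 to -0.30, from -0.52 to -0.12 and from -0.55 to -0.21.

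**Figure D5:**
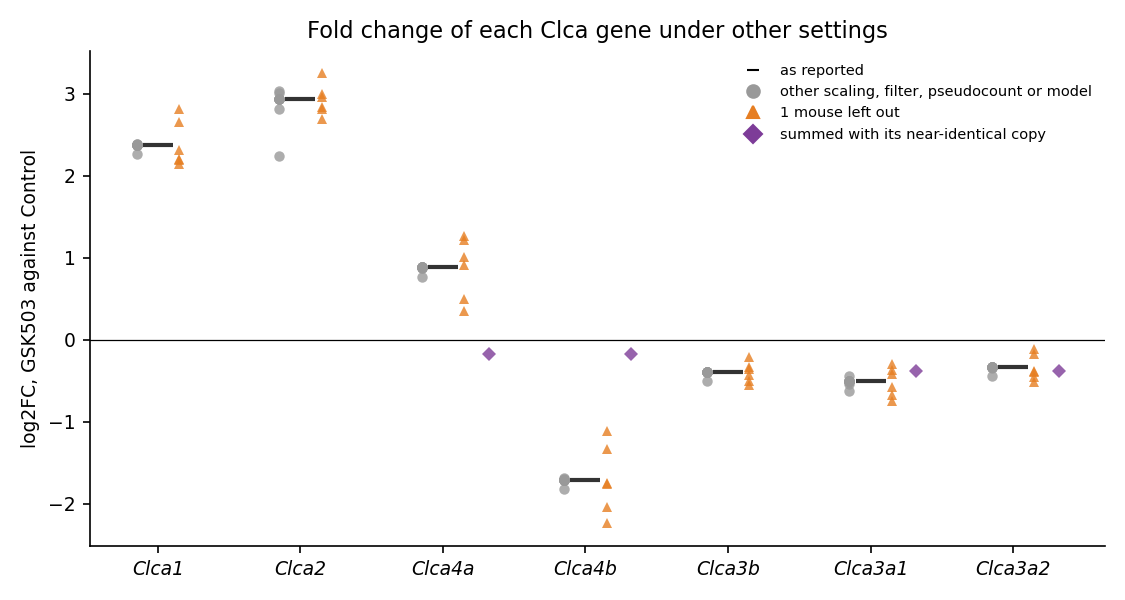
log2FC (GSK503 against Control) of each Clca gene as reported (black bar), under another scaling, filter, pseudocount or model (gray circles), with 1 mouse left out (orange triangles) and summed with its near-identical copy (purple diamonds). Clca4a changes sign when it is summed with Clca4b, to -0.18, and Clca1 and Clca2 stay above 2 throughout.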

How the data were processed

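Crypt RNA of 3 Control and 3 GSK503-treated mice was compared, with groups and replicate numbers taken from the sample labels. Per the paper and the labels, the authors aligned paired reads (STAR, GRCm39), had RSEM estimate gene counts and scaled these by TMM. The values they deposited are therefore a signal, the estimated count relative to the TMM-scaled library size (TMM-scaled CPM). RSEM shares reads that fit several genes, which touches the near-identical Clca copies. The annotation release is not given in the sources used here. Between 75.1% and 78% of the values were whole multiples (within 0.01 counts) of a library's step, which gave the estimated totals. Totals and floors of 3 counts cover counting error only. No 2 libraries were identical, and p-values measure the spread between these mice.

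The Clca members and all gene lists were chosen with earlier results of these data known. limma (version 3.58.1, R version 4.3.3) was fitted to log2(value + 0.1) with an intensity trend and Benjamini-Hochberg adjustment over all 16670 genes with at least 0.1 in at least 3 mice, and the fit was tested on simulated data. A fold change on this scale understates the change of low genes. Named genes were all Clca members, listed genes that were called or were the highest or lowest of their list, tested genes within 1 Mb of the cluster, and the 3 genes nearest in profile to each member. Further listed genes named for their background role were chosen after their values had been seen. Positions, lengths and sequences were read from the GRCm39 genome and its GENCODE annotation. Alternatives were other scalings, filters, pseudocounts and variance models, limma-voom on recovered counts, a replicate block, X and Y genes left out, copies summed, and each mouse left out. The other experiments of the study were not analysed here. A further allele shared by both groups is not reported here.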

Additional observations from a re-analysis of the deposited data

How the results depend on the processing

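The sign of every Clca log2FC was kept under every alternative, apart from that of Clca4a, which changed to -0.18 when it was summed with Clca4b before the fit. The count of members called higher, 2 as reported, was 1 with a pseudocount of 1, 0 without the intensity trend, 1 with robust eBayes, and between 1 and 2 when a mouse was left out. In 16 of 17 alternatives Clca2 was called, the exception being the fit without the trend. No member was called lower under any alternative. Over all genes, the 83 higher and 24 lower calls became 83 and 178 with library size scaling alone, which moved the median log2FC of all genes to -0.116, and 9 and 7 without the trend. Leaving out a mouse gave between 21 and 125 higher and between 9 and 104 lower, with the fewest without GSK503 mouse 2 and the most without GSK503 mouse 3. The 10 calls among listed genes became 5 without the trend, 5 with X and Y genes left out (the 5 sex-linked genes being removed) and between 7 and 19 when a mouse was left out, with 19 without GSK503 mouse 3. Among the genes around the cluster, 1 was called with library size scaling (Ccn1, log2FC -0.90, adjusted p = 0.0378 by limma) and 1 with robust eBayes (Odf2l, log2FC 0.71, adjusted p = 0.0429). The cause of these shifts was not tested.

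Deviations of same-numbered mice from their group means had an r of 0.03, -0.13 and -0.12 across genes. Differently numbered mice were not compared in this way, so these values cannot tell whether the numbers pair the samples. The labels name no pairing. With the replicate number as a block, 1 member (Clca2) was called higher, with 23 higher and 10 lower calls over all genes. Depth bears most on Clca2, with 85 estimated counts in its lowest library, and the split of reads between near-identical copies cannot be checked from the table.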
